A study of Mus musculus with 10 samples.

Results

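The genes described here are 7 genes of the thermogenic programme of brown fat, namely Ucp1, Cidea, Cox8b, Dio2, Pparg, Prdm16 and Ppara, among 29766 genes measured in the inner ear of mice. They were picked by gene symbol, with results of these same arrays already known, and each of the 7 had 1 probe set, so the level itself decided nothing. Because the genes were proposed with these results in view, their values serve as a description, and the tests given with them are those of the fit over all genes.

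All 10 samples came from CBA/CaJ mice of 6 months with normal hearing, each kept alone in its cage. A running wheel was in the cage for 5 samples, called runners, and absent for 5, called controls. The tissue is labelled cochlea, and the RNA came from powdered inner ear put on 1 microarray per sample. The labels give neither sex, running distance nor whether each array is a separate animal, so the tests measure the spread between these arrays, which may be technical.

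Brown fat makes heat. Noradrenaline from sympathetic nerves acts on adrenergic receptors of the fat cell and raises cAMP, fatty acids are set free, and uncoupling protein 1 (UCP1) lets protons leak back across the inner mitochondrial membrane, so that respiration yields heat rather than ATP. Active thyroid hormone, made in the cell by deiodinase 2, and the nuclear receptors and cofactors PPARG, PPARA and PRDM16 support the expression of the thermogenic genes. Adipose tissue and skeletal muscle lie near the inner ear in the head. In bulk tissue, more or fewer cells of a type and more or less RNA per cell cannot be told apart.

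Values are log2 levels after RMA, so a difference of 1 is a doubling of signal. Probe sets differ in how they bind, and levels of different genes are therefore not set against each other. As a floor, 95% of 1225 olfactory receptor genes, which are mostly silent outside the nose, had a mean level under 4.25, and all 7 genes lay above that on all 10 arrays. Of all genes, 67.4% had means above it, so the floor is a low one. All 20 listed markers of cochlear sensory cells, supporting cells and the stria vascularis had means above it, as did all 20 skeletal muscle genes, 17 of 18 adipocyte genes and all 13 genes of astrocytes and cerebellum. Runner 1 stood apart from the other runners in many genes. No label sets it apart, so calls made without it are given as description only. With it, 0 of 29766 genes were higher (0%) and 2 lower (0.00672%) at a limma adjusted p under 0.05. Before adjustment, 955 were higher and 1168 lower at p under 0.05. Without runner 1, 44 were higher (0.148%) and 55 lower (0.185%) by the adjusted p. Without runner 1 and control 1, 134 were higher (0.45%) and 292 lower (0.981%).

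Ucp1, the uncoupling protein itself, had the largest positive difference of all 29766 genes in runners, yet it did not pass the test over all genes. Its level in the controls was 4.63, 5.24, 5.20, 6.26 and 6.65 in replicates 1 to 5. In the runners it was 5.56, 8.80, 8.20, 7.13 and 7.93. Runners 2 to 5 lay above every control, whereas runner 1 lay within the controls, between controls 2 and 4. Controls averaged 5.59 ± 0.83 (SD, n = 5). Runners averaged 7.52 ± 1.25 (SD, n = 5). The difference was 1.93 ± 0.54 (SE), or 3.81-fold with a 95% interval from 1.69 to 8.57. In the limma fit over all genes the adjusted p was 0.569 and the unadjusted p 0.00356, the 182nd smallest.

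Ucp1 was also among the most variable genes inside the groups. Its standard deviation within groups, 1.06, was the 11th highest of the 29766 genes. The controls alone spanned 2.02 on the log2 scale. Without runner 1, the difference was 2.42 ± 0.40 (SE), or 5.36-fold, and passed (limma adjusted p = 0.0480). With all 10 arrays it did not, nor with any other single array left out (limma adjusted p from 0.512 to 0.992). Runner 1 was the lowest runner in Ucp1, so leaving it out was bound to raise the difference. The 4 other runners lying above all 5 controls was a pattern shared by 2.49% of all genes.

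**Figure D1:**
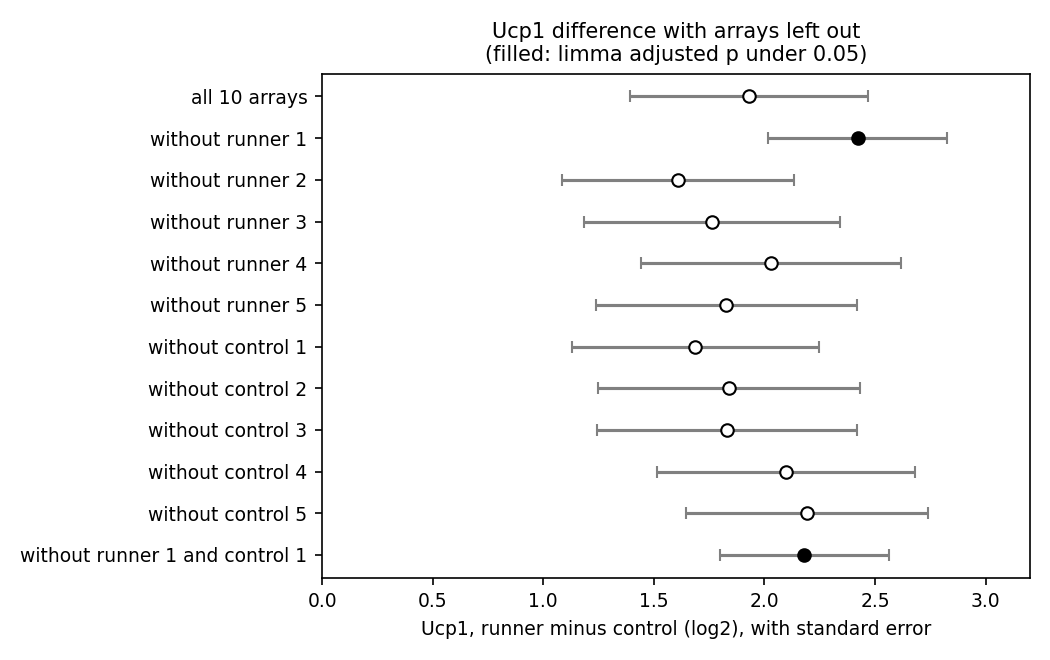
Ucp1 runner minus control difference in log2 units (horizontal axis, bars give the standard error) with all 10 arrays and with arrays left out. It stays between 1.61 and 2.42, and passes the test over all genes (filled points) only without runner 1 and without runner 1 and control 1.

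**Figure D2:**
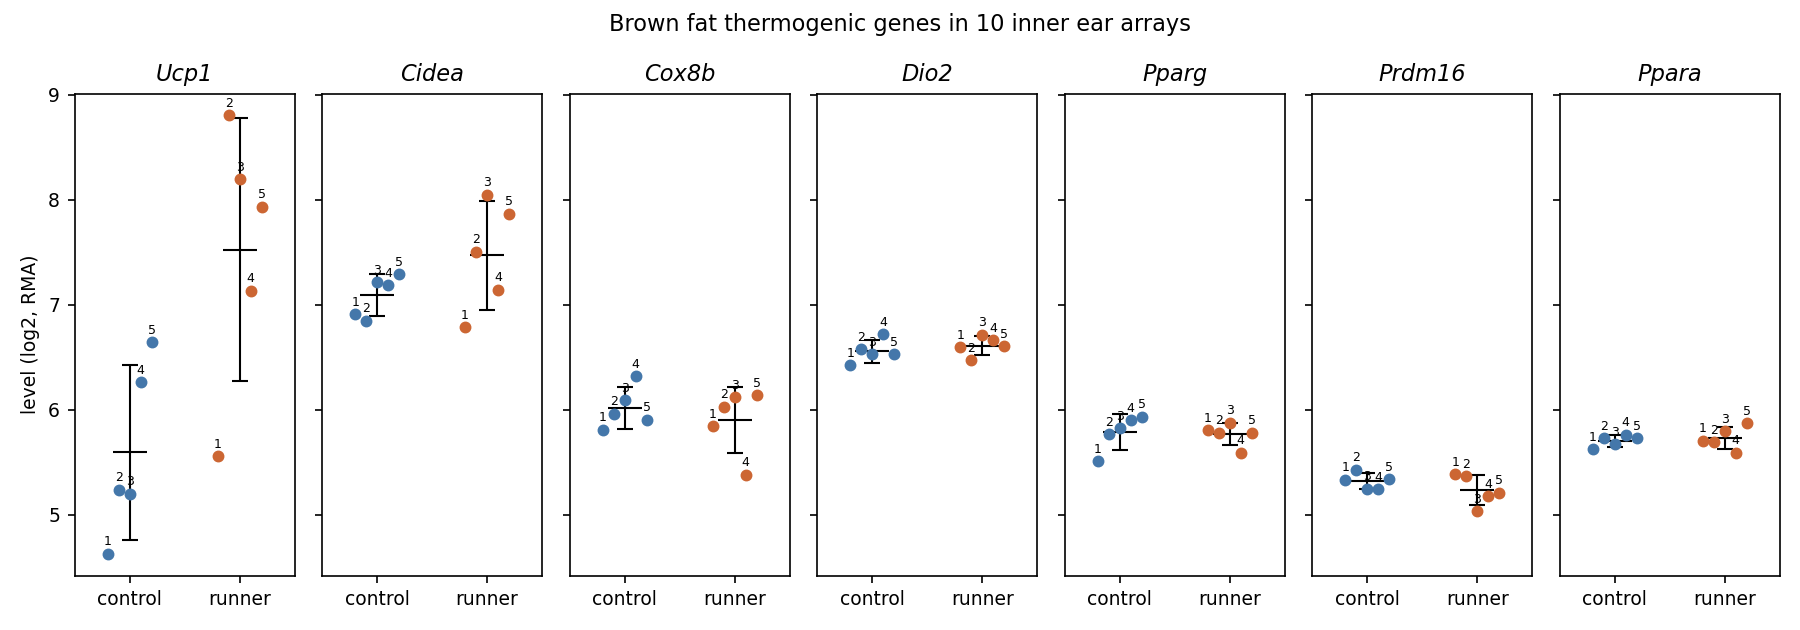
Log2 level (vertical axis) of the 7 genes in 5 controls (blue) and 5 runners (orange). Numbers by the points are replicates, and black bars give the mean and SD. Ucp1 was at 7.13 or more in runners 2 to 5 and at 5.56 in runner 1. The groups overlapped in the other genes too, with runners 2, 3 and 5 above every control in Cidea and runners 3, 4 and 5 below every control in Prdm16.

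Cidea encodes a protein of the lipid droplet surface that is abundant in brown fat of mice. It followed Ucp1 in part. The controls had 6.91, 6.85, 7.22, 7.18 and 7.29 in replicates 1 to 5. The runners had 6.79, 7.50, 8.05, 7.14 and 7.87. Runners 2, 3 and 5 lay above every control, runner 4 lay within them and runner 1 below all of them, so the groups overlapped. The difference was 0.38 ± 0.20 (SE, n = 5 per group), with a 95% interval from -0.06 to 0.82 (limma adjusted p = 0.729). Without runner 1 it was 0.55 ± 0.16, still short of the threshold (limma adjusted p = 0.137).

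Cox8b encodes a tissue-restricted isoform of a small subunit of cytochrome c oxidase, found in brown fat, heart and skeletal muscle of mice. Control levels were 5.81, 5.96, 6.09, 6.32 and 5.91 in replicates 1 to 5, and runner levels were 5.84, 6.03, 6.12, 5.38 and 6.14. The groups overlapped, with the highest value in control 4 and the lowest in runner 4. The difference was -0.12 ± 0.14 (SE), with an interval from -0.42 to 0.19 (limma adjusted p = 0.890), and it was 0.015 without runner 4. With all arrays, higher Ucp1 was not matched by a higher mean of Cox8b. The upper end of the 95% interval was 1.14-fold, and the sign of the difference hung on runner 4.

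Dio2 encodes type 2 deiodinase, which turns thyroxine into the active hormone and which in mice is needed for the cochlea to mature. It was at 6.43, 6.57, 6.53, 6.72 and 6.53 in controls 1 to 5 and at 6.59, 6.47, 6.72, 6.66 and 6.61 in runners 1 to 5. Both groups covered nearly the same range. The difference was 0.05 ± 0.07 (SE), with an interval from -0.09 to 0.20 (limma adjusted p = 0.890).

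The transcriptional regulators of the set differed little. Pparg encodes the nuclear receptor that directs fat cell formation. It was at 5.51, 5.77, 5.82, 5.90 and 5.93 in controls 1 to 5 and at 5.80, 5.78, 5.87, 5.59 and 5.78 in runners 1 to 5. All runner values lay within the control range. The difference was -0.02 ± 0.08 (SE; interval -0.20 to 0.16; limma adjusted p = 0.978), a value whose sign turned with median centring (0.0031).

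Ppara encodes the receptor that switches on fatty acid oxidation. It was at 5.62, 5.73, 5.67, 5.76 and 5.73 in controls 1 to 5 and at 5.71, 5.69, 5.79, 5.59 and 5.87 in runners 1 to 5, again overlapping. Its difference was 0.03 ± 0.06 (SE; interval -0.10 to 0.16; limma adjusted p = 0.946), and -0.0072 without runner 5. Prdm16 encodes the cofactor that steers precursors to brown fat. It was at 5.33, 5.43, 5.25, 5.24 and 5.33 in controls 1 to 5 and at 5.38, 5.37, 5.03, 5.18 and 5.21 in runners 1 to 5. Runners 3, 4 and 5 lay below every control, opposite to Ucp1 in the same arrays. The difference was -0.08 ± 0.07 (SE; interval -0.24 to 0.08; limma adjusted p = 0.831).

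Of the 7 genes, 4 were higher and 3 lower, where 50.5% of all genes were higher. At an unadjusted p under 0.05, 1 was higher, Ucp1, and 0 lower, beside 3.21% and 3.92% of all genes. None of the 7 passed after adjustment over all genes, and in none did all 5 runners lie above all 5 controls, a separation seen in 0.38% of all genes. The median difference of the 7 was 0.029, beside 0.00091 for all genes.

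**Figure D3:**
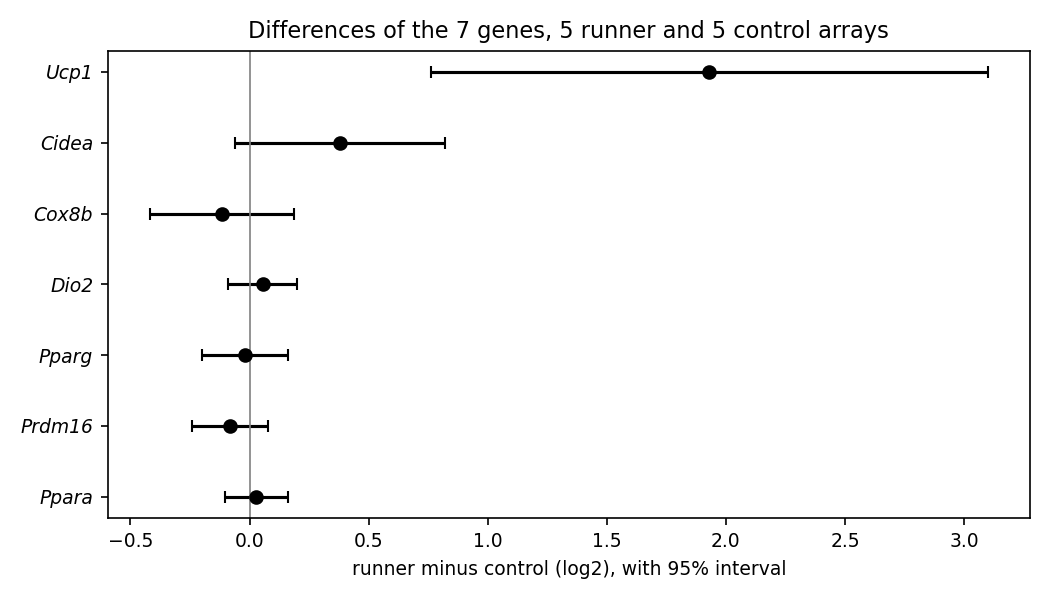
Runner minus control difference in log2 units (horizontal axis) with its 95% interval for each of the 7 genes. Only the interval of Ucp1, from 0.76 to 3.10, lies above 0, and it is the widest. The p-value adjusted over all genes was 0.569.

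A pair of promoters is shown because Ucp1 and Dio2 are both known targets of cAMP signalling in brown fat, and here they differed in how far runners lay from controls. Each is the stretch of 250 bases before the annotated start in RefSeq (GRCm38.p6), on the strand of the gene. Capitals mark AGGTCA, the half-site of nuclear receptors, TGACGTCA, the cAMP response element, and the TATA motifs TATAAA and TATATA, all searched on both strands. The Ucp1 window is chr8:83290098-83290347 on the plus strand and the Dio2 window chr12:90739039-90739288 on the minus strand.
Ucp1: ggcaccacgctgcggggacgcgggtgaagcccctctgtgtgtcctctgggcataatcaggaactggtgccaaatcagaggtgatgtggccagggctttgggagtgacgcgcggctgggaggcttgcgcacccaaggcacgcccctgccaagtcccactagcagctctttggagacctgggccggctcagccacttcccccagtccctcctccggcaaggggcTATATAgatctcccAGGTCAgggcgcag
Dio2: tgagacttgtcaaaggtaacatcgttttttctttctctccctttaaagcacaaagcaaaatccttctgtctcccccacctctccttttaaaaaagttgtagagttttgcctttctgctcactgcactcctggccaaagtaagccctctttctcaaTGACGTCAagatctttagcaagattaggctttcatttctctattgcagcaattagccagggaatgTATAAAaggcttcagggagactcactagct

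The Ucp1 window held TATATA from 28 to 23 bases before the start and 1 AGGTCA from 14 to 9 bases before it. The Dio2 window held TGACGTCA from 95 to 88 bases and TATAAA from 30 to 25 bases before the start. No marked motifs overlapped in either window. TGACGTCA occurred in 1.55% of 32851 RefSeq promoter windows of the same length, AGGTCA in 14%, TATATA in 5.25% and TATAAA in 12.4%. The full direct repeat bound by PPARs, AGGTCANAGGTCA, occurred in 0.0335% of windows and in none of the 8 windows examined for the 6 genes Ucp1, Cox8b, Dio2, Pparg, Prdm16 and Ppara. Such matches are descriptions of these letters only, and the known enhancer of Ucp1 lies farther upstream than this window.

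Other genes tied to brown and beige fat differed in both directions. Of 32 listed, 29 were measured, 15 were higher and 14 lower, with a median difference of 0.0018. At an unadjusted p under 0.05, 2 were higher and 2 lower, beside 3.21% and 3.92% of all genes, and 0 passed after adjustment over all genes. Elovl3 is a fatty acid elongase strongly induced in cold-exposed brown fat. It was at 3.73, 3.71, 3.75, 3.65 and 4.05 in controls 1 to 5, all under the olfactory floor of 4.25. In runners 1 to 5 it was at 3.995, 5.13, 5.14, 4.58 and 5.27, so that runners 2 to 5 lay above every control. With all controls and runner 1 under the floor, the size of the difference is uncertain. The mean of all 5 runners, 4.82, was 1.48-fold above the floor. The fitted difference was 1.04 ± 0.20 (SE; limma adjusted p = 0.279), and 1.25 without runner 1 (limma adjusted p = 0.00619).

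Acot11, an acyl-CoA thioesterase of brown fat, differed by 0.24 ± 0.07 (SE; limma adjusted p = 0.574). Irf4, a transcription factor that works with PGC1A in brown fat and is also a factor of B and T cells, was lower, with all 5 runners below all 5 controls, as in 0.548% of all genes. Its difference was -0.57 ± 0.10 (SE; limma adjusted p = 0.141) and -0.64 without runner 1 (limma adjusted p = 0.0170). Ebf2, a factor that marks brown and beige fat precursors, differed by -0.21 ± 0.08 (limma adjusted p = 0.607). Ppargc1a, the coactivator PGC1A that drives mitochondrial growth, differed by 0.04 ± 0.08, the oxidase subunit gene Cox7a1 by 0.10 ± 0.16 and Otop1, a proton channel gene of brown fat and of the vestibular organ, by 0.08 ± 0.09 (limma adjusted p from 0.875 to 0.940). The name brown fat describes the gene list here and stands for no cell type identified in these samples.

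**Figure D4:**
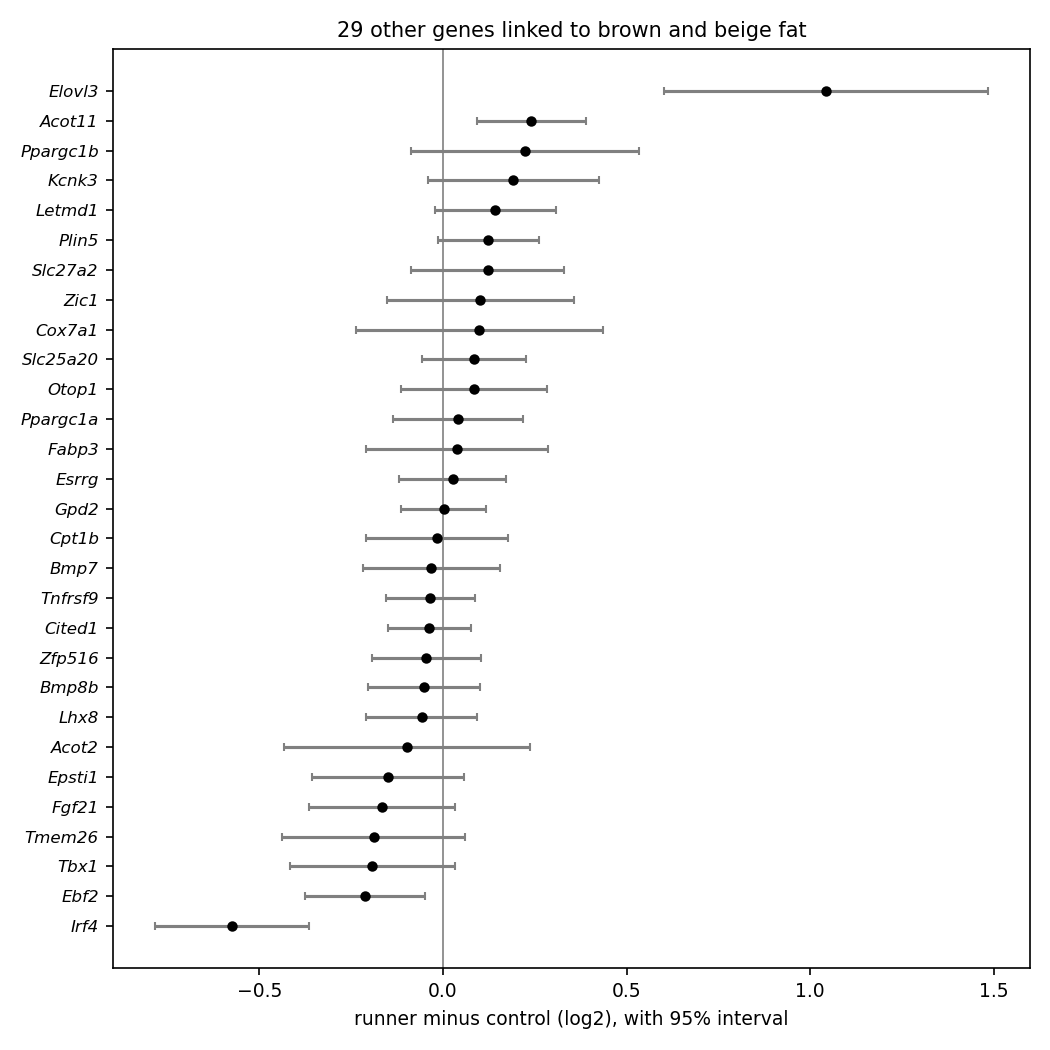
Runner minus control difference in log2 units (horizontal axis) with its 95% interval for 29 other genes linked to brown and beige fat. Elovl3 stands at 1.04 and Irf4 at -0.57. The other 27 lie between -0.21 and 0.24.

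Paralogs of the 7 genes were compared to see whether whole families differed. Cidec, the CIDE family member of lipid droplets in white fat, was at 5.03, 5.36, 5.16, 5.67 and 5.45 in controls 1 to 5 and at 5.65, 6.12, 6.53, 5.65 and 6.38 in runners 1 to 5. Runners 2, 3 and 5 lay above every control, the same 3 arrays as for Cidea. The difference was 0.73 ± 0.18 (SE; limma adjusted p = 0.50). The third family member, Cideb, differed by -0.05 ± 0.07. Ucp3, the uncoupling protein of skeletal muscle, differed by 0.10 ± 0.10 (limma adjusted p = 0.850), with the highest value, 6.10, in runner 3. Cox8a, the isoform of most tissues, differed by -0.03 ± 0.06. Dio1 lay under the floor of 4.25 on all 10 arrays, and Cox8c and Dio3 had levels close to it on both sides, so no difference is given for them. Mecom, the nearest relative of Prdm16, differed by -0.07 ± 0.05. Of the 8 measured paralogs 0 passed after adjustment over all genes.

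Most genes of fat in general and of fat synthesis had positive differences, though none passed over all genes with all arrays. Of 18 measured genes of white fat and adipocytes in general, 17 were higher, where 50.5% of all genes were, with 9 higher and 1 lower, Car3, before adjustment (p under 0.05; 3.21% and 3.92% of all genes), and 0 after adjustment over all genes. The median difference was 0.19. The fatty acid carrier Fabp4 (0.53 ± 0.12 SE) and the resistin gene Retn (0.49 ± 0.14) had the smallest p, but Retn lay under the floor of 4.25 in all controls, so that its size is uncertain. The hormone gene Adipoq differed by 0.08 ± 0.10, and the leptin gene Lep lay at the floor in both groups. Of 10 measured fatty acid synthesis genes 9 were higher, 4 before adjustment (p under 0.05; 3.21% of all genes) and 0 after it, with a median of 0.21. The fatty acid synthase gene Fasn differed by 0.69 ± 0.14 and the desaturase gene Scd1 by 0.57 ± 0.13. Both passed without runner 1 (limma adjusted p = 0.0170 and 0.0406). In Fasn and Fabp4 all 5 runners, runner 1 included, lay above all 5 controls, as in 0.38% of all genes. In Scd1 runner 1 (9.90) lay within the controls.

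The mean of the adipocyte list was at 6.03, 6.20, 6.15, 6.33 and 6.20 in controls 1 to 5 and at 6.30, 6.40, 6.55, 6.24 and 6.50 in runners 1 to 5. Runner 3 was the highest array and runner 4, the lowest runner, lay below control 4, whereas Ucp1 was highest in runner 2. Over the 10 arrays Ucp1 correlated with this mean (Pearson r = 0.83, permutation p = 0.00334, adjusted 0.0367 over the 14 relations examined). Spearman's rho was 0.83 (permutation p = 0.00462, adjusted 0.0647). Without runner 3 and control 1, the 2 arrays farthest from the median of the list, r was 0.73. For Cidea, Pearson's r was 0.80 (permutation p = 0.00525, adjusted 0.0367) and rho 0.58 (permutation p = 0.0886, adjusted 0.156), with r = 0.67 without the same 2 arrays. The other 5 genes had r between -0.54 and 0.73 with adjusted permutation p from 0.0764 to 0.286. These pooled values mix the difference between groups with variation inside them, and they do not show that the other 5 genes followed the list less. Inside each group of 5 arrays, too few for a correlation to be reported as a result, Cox8b, Pparg and Ppara each had a higher r with the adipocyte mean than Ucp1 had.

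No correlation of Ucp1 with the skeletal muscle genes was detected over these arrays, which are too few to exclude one. All 20 genes were measured, 6 higher and 14 lower, with a median of -0.06 and 0 at an unadjusted p under 0.05 in either direction. Mb (-0.11 ± 0.12 SE) and Tnnc2 (-0.15 ± 0.19) had the smallest p. The list mean ranged from 7.50 to 8.14 in controls and from 7.50 to 8.33 in runners. Runner 2, the highest in Ucp1, had the lowest muscle mean of the runners, 7.50. Pearson's r of Ucp1 with the muscle mean was -0.030 (permutation p = 0.933, adjusted 0.933) and rho -0.091 (permutation p = 0.813, adjusted 0.813), with r = -0.071 without runners 3 and 2. For Cox8b r was 0.58 (permutation p = 0.0729, adjusted 0.157) and rho 0.70 (permutation p = 0.0301, adjusted 0.156), with r = 0.73 without these arrays. The remaining genes of the set had r between -0.60 (Prdm16) and 0.58 (Dio2), with adjusted permutation p from 0.157 to 0.588. The value of Cox8b thus did not stand apart. Here too the pooled values mix the difference between groups with variation inside them.

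Markers of the cochlea differed in the opposite direction in the same arrays. All 20 cochlear sensory and stria genes were lower in runners, 9 before adjustment (p under 0.05; 3.92% of all genes) and 0 after it, with a median of -0.21. Cldn11 (-0.25 ± 0.06 SE; limma adjusted p = 0.510) and Kcne1 (-0.32 ± 0.12; limma adjusted p = 0.607) had the smallest p. In Cldn11 all 5 runners, runner 1 included (8.96), lay below all 5 controls, as in 0.548% of all genes. Without runner 1, Otoa, a gene of supporting cells, passed (-0.36, limma adjusted p = 0.0496). The mean of the cochlear list ranged from 6.51 to 6.70 in controls, was 6.74 in runner 1 and lay between 6.24 and 6.44 in runners 2 to 5. Runner 1 thus had the lowest Ucp1 of the runners and the highest cochlear mean of all 10 arrays. The 13 measured genes of astrocytes and cerebellum had a mean from 8.20 to 8.35 in controls and from 8.15 to 8.50 in runners, lowest in runner 1. Of these 13 genes 9 were higher and 4 lower, where 50.5% of all genes were higher, and 0 had an unadjusted p under 0.05. Zic2 (0.13 ± 0.06 SE, limma adjusted p = 0.704) and Gabra6 (0.24 ± 0.13, limma adjusted p = 0.729) had the smallest p. S100b of the same list was lower, with a p close to that of Gabra6 (-0.24 ± 0.12, limma adjusted p = 0.729). The part of tissue makeup in the Ucp1 difference was not tested.

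**Figure D5:**
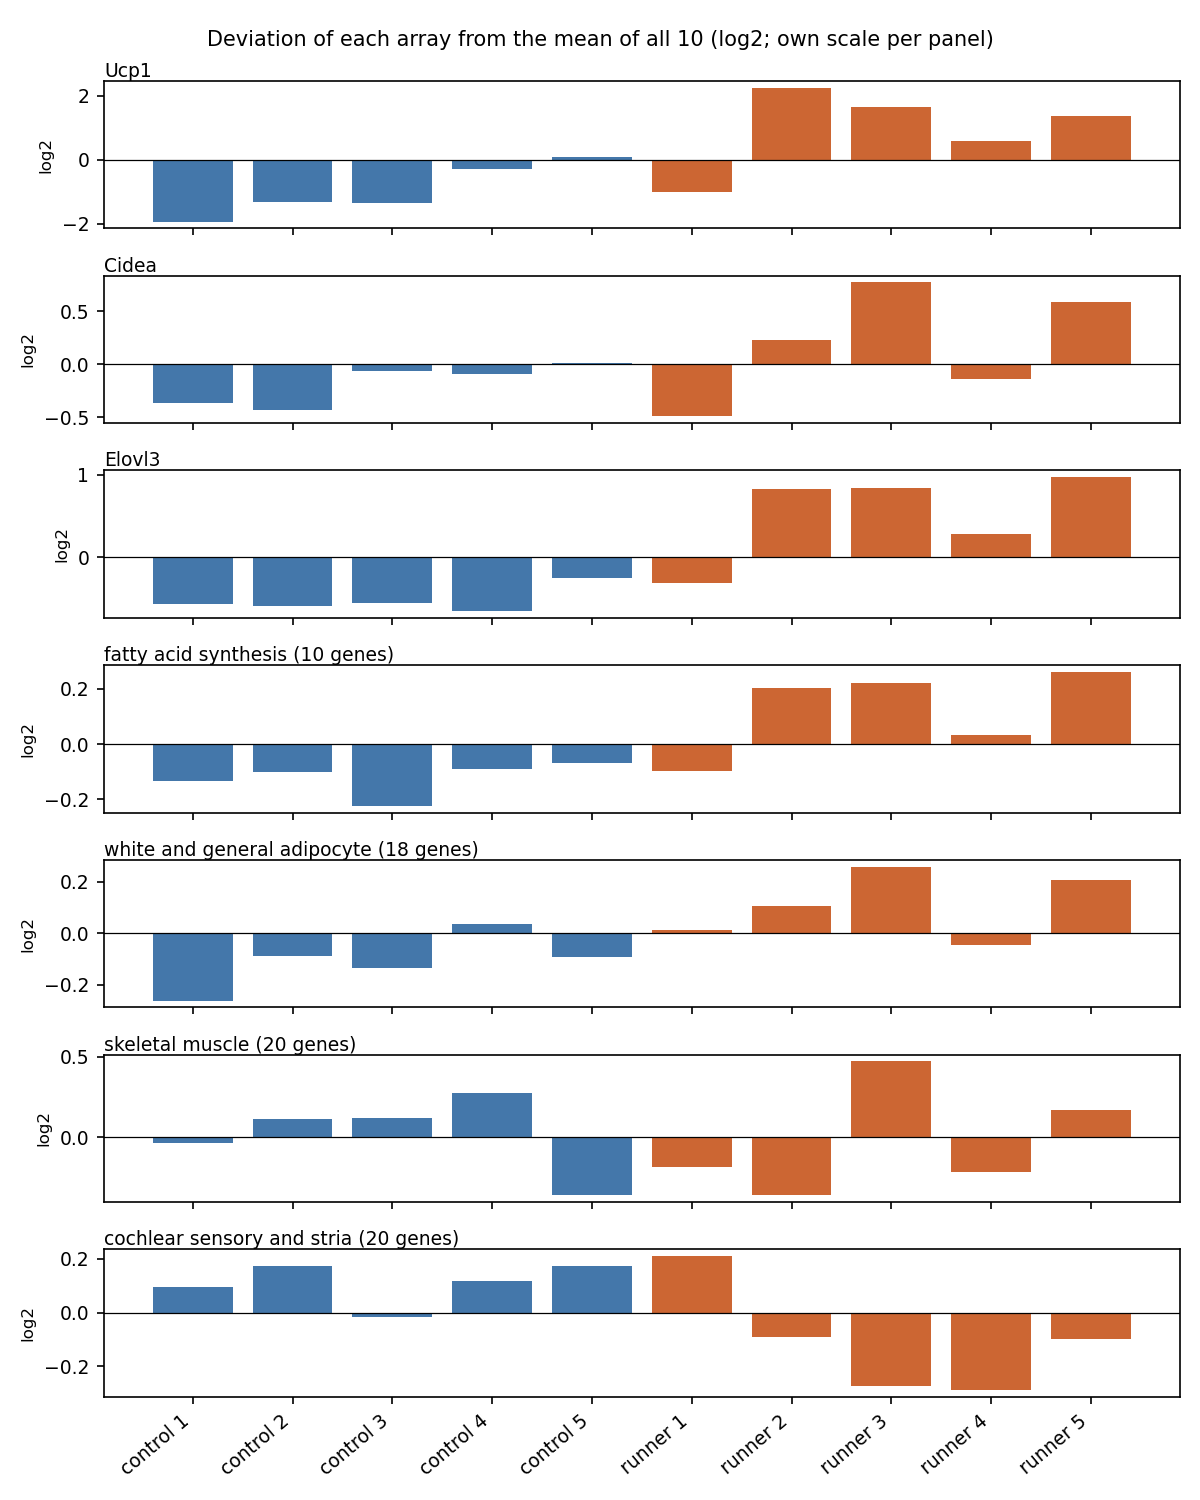
Deviation of each array from the mean of all 10 in log2 units (vertical axis, own scale per panel) for 3 genes and 4 list means, controls in blue and runners in orange. Runners 2 to 5 are above the mean for Ucp1 and Elovl3 and below it for the cochlear list, while runner 1 is below it for Ucp1 and above it for the cochlear list.

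Upstream of Ucp1, genes of sympathetic and thyroid signalling were examined. Of 8 measured genes of sympathetic signalling 6 were higher, 3 before adjustment (p under 0.05; 3.21% of all genes) and 0 after it. These were Pde3b (0.25 ± 0.09 SE), which breaks down cAMP, Prkacb (0.16 ± 0.06), a catalytic subunit of protein kinase A, and Th (0.24 ± 0.09), the first enzyme of noradrenaline synthesis. Dbh, which makes noradrenaline from dopamine, differed by -0.0031 ± 0.075. Of 8 measured thyroid hormone genes 6 were higher, 3 higher and 1 lower before adjustment (p under 0.05; 3.21% and 3.92% of all genes), and 0 after it. The higher ones were Thrsp (0.52 ± 0.12), a thyroid-responsive gene that is also part of fat synthesis, Klf9 (0.32 ± 0.08), a target of thyroid hormone and of glucocorticoids, and Hr (0.21 ± 0.07). Thrsp passed without runner 1 (0.65, limma adjusted p = 0.00855). Klf9 was higher in all 5 runners than in all 5 controls, as in 0.38% of all genes. The lower one was the thyroxine transporter gene Slco1c1 (-0.27 ± 0.12). The receptor genes Thra and Thrb differed by 0.04 ± 0.06 and 0.01 ± 0.07.

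Likeness of pattern over the 10 arrays was measured by Pearson's correlation. Compared were 2243 genes with an SD of at least 0.2, other than the 7 genes. Symbols of the kinds Gm, Rik, LOC, Mir, Snor, AU, AW and BC, or with a leading digit, had been left out. The 5 highest Pearson correlations with Ucp1 were those of Gpd1 (r = 0.93), Scd1 (0.92), Elovl3 (0.92), Acaca (0.90) and Cidec (0.89). Gpd1 makes glycerol 3-phosphate, and Acaca encodes the first enzyme of fatty acid synthesis. For Cidea the 5 highest were Pck1 (0.95), Ephx2 (0.93), Gys2 (0.92), Plin1 (0.91) and Gabrg1 (0.90). For Dio2 they were Chordc1 (0.95), mt-Tk (0.90), Mstn (0.86), Clec3a (0.86) and Cga (0.85). Dio2 itself had an SD over the 10 arrays of 0.098, under the 0.2 asked of the genes compared, so its pattern rests on small differences. No gene was in more than 1 of these lists. Among the 7 genes themselves, Ucp1 and Cidea had r = 0.81, Cox8b and Ppara 0.73, and Cidea and Prdm16 -0.73. These correlations were picked as the highest of many and share arrays and group differences, so they are descriptions.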

How the data were processed

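RNA of inner ear was measured on 1 one-colour array per sample. The log2 values per transcript cluster are those deposited by the authors. Per the submitters' processing notes the tools were RMA and Partek (versions, chip, build and filters not given in the sources used here). RMA equalizes the arrays' distributions, which hides a shift common to most genes, and it understates changes of dim genes. The number of arrays limits precision.

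The platform annotation gave 30130 of 39295 probe sets exactly 1 distinct symbol, 2146 more than 1 and 7019 no symbol; 827 symbols were updated through Entrez identifiers to RefSeq (GRCm38.p6). The brightest probe set per gene was kept, leaving 29766 genes. Listed genes without a probe set of their own were not analysed here.

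The test was limma's (version 3.58.1, R 4.3.3), with lmFit and eBayes on group alone, two-sided, adjusted by Benjamini-Hochberg over all genes at a threshold of 0.05, after a check on simulated data. Differences are runner minus control with the moderated standard error. Correlations used 100000 two-sided permutations. Members, lists and rules were chosen with earlier results of these data known. Named were the members, their paralogs, the 4 other brown fat genes and 2 of each other list with the smallest p, and the 5 genes most like Ucp1, Cidea and Dio2. Genes outside that rule (Cox7a1, Otop1, Ppargc1a, Adipoq, Lep, Car3, Otoa, S100b, Th, Dbh, Hr, Slco1c1, Thra and Thrb) were named after their values were seen. Alternatives were other filters, moderation, normalization, weights, probe sets, thresholds, a replicate block and arrays left out. Figures were drawn with matplotlib 3.10.9.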

Additional observations from a re-analysis of the deposited data

Results flagged for a closer look

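Of 96 groups of 5 arrays examined (37 genes and 11 list means in 2 groups each), 4 held an array far from the other 4 of its group by Dixon's criterion, and chance alone flags about 1 in 20 groups. Elovl3 was far higher in control 5, at 4.05, than in the other controls. Fabp4 was far lower in control 1, at 6.59. Scd1 was far lower in runner 1, at 9.90, the runner that was also lowest in Ucp1. The mean of the thyroid hormone genes was far higher in control 2, at 7.22. None of the 7 thermogenic genes was flagged.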

How the results depend on the processing

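The Ucp1 difference kept its direction in all 21 alternatives, between 1.61 and 2.42. It did not pass with all arrays, and passed without runner 1 (2.42, limma adjusted p = 0.0480) and without runner 1 and control 1 (2.18, limma adjusted p = 0.0358). The adjusted p ranged from 0.0358 to 0.992. Cidea ranged from 0.23 to 0.55, Dio2 from 0.02 to 0.10 and Prdm16 from -0.13 to -0.03, with no change of sign or call. With 1 array left out, Cox8b ranged from -0.17 to 0.015, Pparg from -0.090 to 0.024 and Ppara from -0.0072 to 0.064, so their signs are not settled. Pparg was also 0.0068 with repeated quantile normalization and 0.0031 with median centring. Genes called higher over all genes numbered 0 to 44 with 1 array left out, 5 with array weights and 134 without runner 1 and control 1. Those called lower numbered 2 to 55, 10 and 292, and 1 without moderation. The cause was not tested. Prdm16 lay below the filter on dim genes and was not fitted there. Arrays with the same replicate number did not pair: the correlations of their deviations ran from -0.25 to 0.28. With the replicate block Ucp1 stayed at 1.93 ± 0.40 (SE; limma adjusted p = 0.570), and 0 genes were called higher and 2 lower.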

Other observations

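Genes of fatty acid oxidation and PPAR targets were mostly slightly higher in runners. Of 19 measured, 16 were higher, with a median difference of 0.06, 2 before adjustment (p under 0.05; 3.21% of all genes) and 0 once adjusted over all genes. The 2 were Angptl4 (0.33 ± 0.05 SE; limma adjusted p = 0.141), an inhibitor of lipoprotein lipase, and Pdk4 (0.61 ± 0.16; limma adjusted p = 0.536), an inhibitor of glucose oxidation. Angptl4 was higher in all 5 runners than in all 5 controls, runner 1 included (6.31), a separation seen in 0.38% of all genes. Without runner 1 it passed (0.32, limma adjusted p = 0.0487).

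Partners of the regulators differed little. Of 16 measured nuclear receptor partners, C/EBP factors and cofactors, 11 were higher, with a median difference of 0.03, and 1, Creb1 (0.15 ± 0.06), the factor that binds cAMP response elements, had an unadjusted p under 0.05, beside 3.21% of all genes. Cebpd, a C/EBP factor, had the next smallest p (0.18 ± 0.10 SE). None of the partners passed after adjustment over all genes.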
